A study of Anser cygnoides with 12 samples.

Results

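The 200 most abundant long non-coding RNA rows of the goose ileum, the end of the small intestine, were examined in 12 RNA-seq libraries. They are the 200 rows typed lnc_RNA with the highest mean FPKM over the 12 libraries, out of 4136 such rows in a table of 19836 genes. FPKM is the authors' measure of level, which adjusts the count of a gene for transcript length and for the depth of the library. Mean FPKM chose the members, so their abundance and their rank are given as a description and were not tested.

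All libraries were made from polyadenylated RNA of the ileum, taken from Yangzhou geese, a domestic breed. Lactulose geese received a diet with 21% crude protein and 0.3% lactulose, a synthetic disaccharide that gut bacteria ferment. High protein geese received 21% crude protein without lactulose, and control geese a basal diet with 18% crude protein. Each diet had 4 libraries, named here by the replicate numbers of the labels, which are 2, 3, 5 and 6 for lactulose, 1, 3, 4 and 5 for high protein and 3, 4, 6 and 7 for control. The labels give neither age nor sex, nor whether replicates are separate birds, so the p-values refer to the spread among these samples, which may be technical.

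Long non-coding RNAs are transcripts that resemble messenger RNAs in being spliced and polyadenylated but have no annotated protein product. Many start near, or run opposite to, a protein-coding gene, and some act on chromatin, on splicing or as sponges for microRNAs, while the function of most is unknown. They are typically less abundant and more restricted to single tissues than messenger RNAs. The type is an annotation call, made where no convincing reading frame is found, and short coding genes and fragments of gene models can carry it.

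Total counts ranged from 38706155 to 48251825 per library. The intestinal transcription factors CDX1 and CDX2 stood at 33.2 to 103 and at 59.6 to 132 FPKM. The ileal bile acid genes FABP6 and SLC10A2 stood at 621 to 3490 and at 6.84 to 146 FPKM over the libraries. Summed FPKM of 7 of 10 listed enterocyte markers was 973 in lactulose 2, 953 in high protein 3 and 939 in control 6, against 1544 to 4599 in the 9 other libraries. Control 3 stood apart over the members, with a median correlation of log2 values with the other libraries of 0.794, against 0.858 to 0.884 for the rest. It did so over all genes tested too, at 0.938 against 0.957 to 0.963. Lactulose 3 and 5 correlated at 0.981 over the members, the highest of all pairs, ahead of 0.949 for lactulose 2 and 6. Over all genes tested they were the closest pair as well, at 0.983. They were kept as separate samples, as labelled. In bulk tissue, fewer cells of a type and less RNA per cell cannot be told apart.

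Mean FPKM of the members ran from 1212 for LOC125180239 to 2.09 for LOC125183779 at rank 200, with a median of 4.76. Of the 200, 45 lay above 10 FPKM, 12 above 50 and 5 above 100. The first 2 ranks held 43.8% of the members' summed mean FPKM and the first 10 held 65.2%. The members held 86.7% of the summed FPKM of all lnc_RNA rows, whose median was 0.0357 FPKM. The median of the 14314 mRNA rows was 6.45 FPKM, somewhat above the 4.76 of the members, and 68.5% of mRNA rows had a mean above that of rank 200. Among the 1000 most abundant genes of the table, 9 were lnc_RNA rows.

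The threshold fell in a flat part of this curve. The last rows inside it had means of 2.11 FPKM (LOC125180576), 2.09 FPKM (LOC125181194) and 2.09 FPKM (LOC125183779). The first rows outside it had 2.09 FPKM (LOC106047694), 2.07 FPKM (LOC125182722) and 2.01 FPKM (LOC125182469). Ranking by the median in place of the mean kept 196 of the 200. Ranking by mean CPM, which does not divide by length, kept 133, and the median span of the rows chosen was then 7583 bases, against 3859.5 bases for the members. LOC125183064, described with the diets, was at rank 32 by mean FPKM and at rank 392 by mean CPM, outside the 200. In single libraries 170 to 184 of the members were among that library's first 200 lnc_RNA rows, and 120 were so in each of the 12 libraries.

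**Figure D1:**
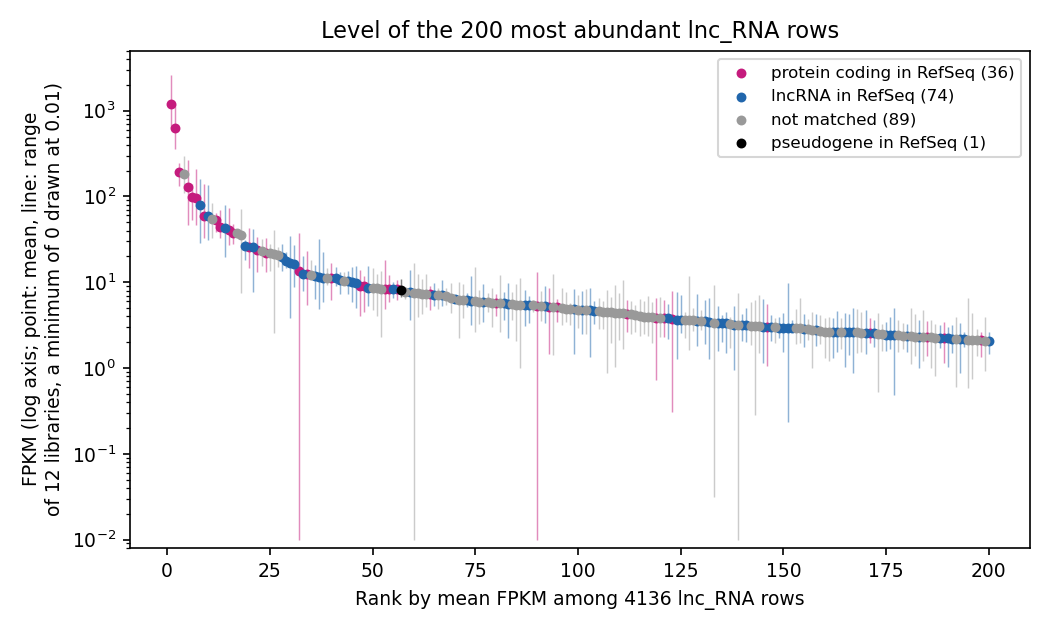
Mean FPKM (points, log axis) of the 200 lnc_RNA rows by rank, with lines from the lowest to the highest of 12 libraries and a minimum of 0 drawn at 0.01. Colours give the RefSeq type in another goose assembly; protein-coding rows make up 7 of the first 10 ranks.

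The type lnc_RNA did not hold for all members in a second annotation. In the RefSeq gene table of a Taihu goose assembly, 111 members had an entry with the same gene identifier, of which 74 were lncRNA, 36 protein coding and 1 a pseudogene, and 89 had no match. Protein-coding entries made up 32.4% of the matched members, against 3.16% (75 of 2371) of the matched lnc_RNA rows below rank 200. They lay at the top of the ranking, with 7 of the 9 matched rows of the first 10 and 19 of the 38 matched of the first 50. By summed mean FPKM they held 66.7% of the members' total, against 14.8% for the rows that are lncRNA in both annotations and 18.3% for the unmatched. The set is therefore called by its rule below, as lnc_RNA rows of the deposited table. The members also spanned less of the genome, introns included, than other lnc_RNA rows, with a median span of 3859.5 bases against 8915. It was 1844.5 bases for those coding in RefSeq. Among the 200 rows of highest mean CPM, 27 of the 128 matched rows were protein coding. The share of coding entries thus depends in part on the division by length.

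Of the 36, 18 carry the symbol of a known gene, and these encode proteins of varied cell functions. LOC125180239, at rank 1, is RPS27, a protein of the small ribosomal subunit. LOC106049678 is TOMM5, a subunit of the mitochondrial protein import pore, and LOC106046776 is CENPX, a centromere protein. LOC125182216 is GNG5, a gamma subunit of heterotrimeric G proteins, and LOC125181513 is GIPC1, an adaptor for receptor trafficking. LOC125181073 is HNRNPA1, an RNA-binding splicing factor, and LOC106047661 is BOLA3, which serves iron-sulphur cluster assembly. LOC106047874 is ATG12, a ubiquitin-like protein of autophagy, LOC125183107 is CDKN1C, an inhibitor of cyclin-dependent kinases, and LOC125181776 is COPS6, a subunit of the COP9 signalosome.

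All of these but RPS29 and ERCC1 had counts in every library. GNG5 averaged 33.2 ± 5.17 FPKM with lactulose, 43.5 ± 3.28 with high protein and 46.2 ± 18.5 in controls (mean ± SD, n = 4 per diet here and throughout). CENPX averaged 48.2 ± 9.75, 58.4 ± 5.12 and 53.6 ± 10.9 FPKM in the same order, and COPS6 8.10 ± 0.32, 6.61 ± 1.57 and 7.03 ± 1.42 FPKM. ERCC1 (LOC125181835), a subunit of a DNA repair nuclease, ranged from 0 in 1 library to 13.3 FPKM. For 5 of the 18 the table also holds an mRNA row with the symbol as its name. The row of CDKN1C averaged 19.9 FPKM beside 9.09 for LOC125183107, that of PURA 9.47 beside 2.11 for LOC125180576, and that of PURB 3.93 beside 5.79 for LOC125181305. How the authors divided reads between such copies is not stated in the labels or headers, so the levels of both rows in a pair are uncertain.

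The remaining symbols were ATP6V0E2, SFT2D3, RUSF1, PURG and RPS29. ATP6V0E2 (LOC125182401), a subunit of the proton pump of vesicles, averaged 8.45 FPKM over the 12 libraries. SFT2D3 (LOC106040300) averaged 8.27 FPKM and lies opposite WDR33. RUSF1 (LOC125181593) averaged 3.86 FPKM, and PURG (LOC106035220), a relative of the nucleic-acid-binding proteins PURA and PURB, 2.22 FPKM. The mRNA row named PURG averaged 0.187 FPKM, and the levels of both PURG rows are uncertain for the reason given above. RPS29 is described with the diets.

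LOC125180239, annotated as RPS27 in RefSeq and described in the table as like ribosomal protein S27, was the leading row in 11 of 12 libraries. It lies on the minus strand of scaffold NW_025927867.1 at 583568 to 584190, a span of 623 bases whose end overlaps NUP210L, a nucleoporin gene of the opposite strand at 0.797 FPKM on average. Its level was 820, 703, 645 and 1398 FPKM in lactulose 2, 3, 5 and 6. It was 1140, 1332, 1813 and 1260 FPKM in high protein 1, 3, 4 and 5, and 2598, 1010, 1188 and 634 FPKM in control 3, 4, 6 and 7. The diets overlapped, with control 3 highest and control 7 lowest of all 12. The log2 fold change was −0.83 ± 0.45 (SE) for lactulose against control and −0.09 ± 0.45 for high protein against control (edgeR, unadjusted p = 0.0900 and 0.849).

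LOC125181861, at rank 2, has 2930 bases on scaffold NW_025929018.1 (1460 to 4389, plus strand), where the table lists no other gene, and is protein coding and on chromosome W in the RefSeq table. It stood at 1181, 520, 446 and 915 FPKM in lactulose 2, 3, 5 and 6. It stood at 367, 898, 556 and 361 FPKM in high protein 1, 3, 4 and 5 and at 651, 416, 823 and 410 FPKM in control 3, 4, 6 and 7. Lactulose 2 was the only library in which it exceeded LOC125180239. Within high protein and within control its highest value fell in the library of lowest enterocyte marker sum, and within lactulose likewise. The part of tissue make-up in these values was not tested.

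LOC106049607, at rank 5, had its lowest value in each diet in the library where LOC125181861 was highest. The table describes it as a hypothetical protein of duck, and it lies at 12411 to 17102 on scaffold NW_025928108.1. It stood at 46.9, 265, 263 and 86.4 FPKM in lactulose 2, 3, 5 and 6, at 134, 65.1, 113 and 93.4 FPKM in high protein 1, 3, 4 and 5, and at 142, 98.9, 58.7 and 181 FPKM in control 3, 4, 6 and 7. The lowest values were those of lactulose 2, high protein 3 and control 6, the libraries of lowest enterocyte marker sum. The diets overlapped.

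The other rows of the first 10 overlapped between all 3 diets. LOC106029345, described as a C-type lectin, stood at 133 to 228 FPKM with lactulose, 150 to 240 with high protein and 180 to 243 in controls. It shares its strand and place with LOC106029346, so how reads were divided between the pair is uncertain. LOC125179690, at rank 4, lies inside LOC125179694 on the same strand and averaged 184 FPKM, against 458 for that mRNA row. LOC125181724, described as a tubulin alpha chain, averaged 97.3 FPKM, LOC106029519 95.1, LOC125180617 80.6, LOC106049678 (TOMM5) 59.4 and LOC106034806 58.7 FPKM. LOC106034806 holds a small nucleolar RNA gene, LOC125182868, within its span.

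Position gave a further view of the set. Of the 200, 77 (38.5%) overlapped another gene of the table, against 44.5% of the lnc_RNA rows below rank 200. Of these, 64 ran opposite to a gene, 14 along the same strand and 1 did both. Another 61 lay within 1000 bases of a gene without overlap, and 12 were the only gene of their scaffold. In the 73 opposite pairs the member was the more abundant partner in 19, and the median ratio of member to partner was 0.330 in mean FPKM. LOC125181142 and LOC106038247 are both members and run opposite each other, so this pair is counted from both sides. The libraries came from a strand-marking kit per the labels, but whether counting used the strand is not given, so values of opposite pairs are uncertain.

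Spread between libraries was described by the coefficient of variation within diets. Its median over the members was 29.8% (quartiles 20.1 and 41.9%), against 20.5% for the 9799 mRNA rows with a mean above that of rank 200 and 33.9% for the next 200 lnc_RNA rows in rank. These mRNA rows were not matched to the members by level. It was 28.1% for members coding in RefSeq, 30.6% for those that are lncRNA there and 30.6% for the unmatched. No test was made of these differences, since members were chosen by level and genes are not replicates. A count above 0 was present in all 12 libraries for 196 members.

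The steadiest rows came from several parts of the ranking. LOC125180119, which lies 35 bases from OXCT1, a ketone-using enzyme, had a coefficient of variation of 5.70%, at 36.4 to 40.1 FPKM with lactulose, 35.5 to 39.7 with high protein and 32.4 to 38.3 in controls. LOC106046029 had 7.43%, and LOC106043767, near NF1, 9.24%. LOC106030963, near SINHCAF, had 10.9%, and LOC125181305, annotated as PURB, 11.9%. LOC125180119 was thus steady at a mean of 37.2 FPKM, a level most members did not reach.

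At the other end, 4 rows exceeded 100%. LOC125181677 and LOC125181886 each had 109%, LOC125180650 107% and LOC106035225 106%, followed by LOC125180447 with 83.0%. The values of LOC125180650 moved with a neighbour. It runs opposite to SLC5A12, a sodium-coupled transporter of monocarboxylates such as lactate, and over 106682 bases of scaffold NW_025927933.1. It is itself described as sodium-coupled monocarboxylate transporter 2. It stood at 0.879, 8.74, 9.79 and 2.31 FPKM in lactulose 2, 3, 5 and 6, where SLC5A12 stood at 4.99, 133, 143 and 22.6 FPKM.

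In high protein 1, 3, 4 and 5 it stood at 0.548, 0.345, 0.795 and 3.52 FPKM with SLC5A12 at 8.63, 2.37, 9.53 and 68.9 FPKM. In control 3, 4, 6 and 7 it stood at 1.45, 6.06, 0.234 and 0.550 FPKM with SLC5A12 at 38.4, 48.8, 1.34 and 22.3 FPKM. Within each diet the library of the highest LOC125180650 was also that of the highest SLC5A12. LOC125180447, opposite KIAA1755, stood at 1.52 to 3.14 FPKM in the lactulose and high protein libraries, at 6.63 FPKM in control 6 and at 0.588 to 1.10 FPKM in the other controls.

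**Figure D2:**
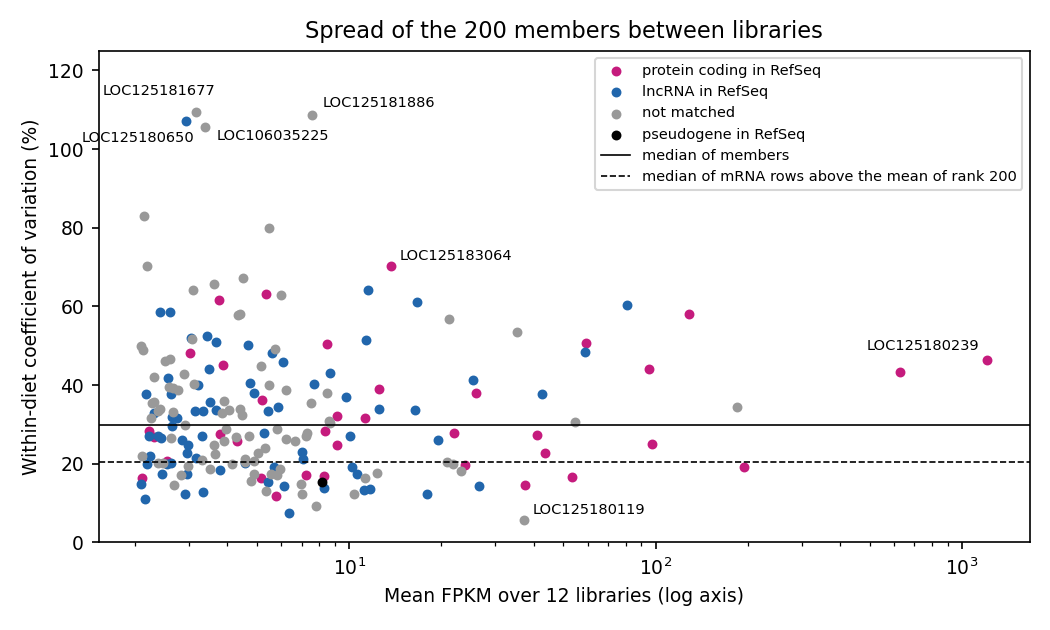
Coefficient of variation of FPKM within diets (%) against mean FPKM (log axis) for each of the 200 rows, coloured by RefSeq type. The solid line is the members' median (29.8%) and the dashed line that of mRNA rows above the mean of rank 200 (20.5%); 4 rows lie above 100%.

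The share of all FPKM that fell to the members averaged 1.01 ± 0.11% with lactulose, 0.946 ± 0.092% with high protein and 0.979 ± 0.14% in controls, and the diets overlapped. Without the first 2 ranks the share was 0.574 to 0.624% with lactulose, 0.499 to 0.525% with high protein and 0.541 to 0.564% in controls. The libraries of the 3 diets did not overlap in this smaller share, but they did in the summed FPKM behind it, which was 2225 to 2480 with lactulose, 2137 to 2523 with high protein and 2159 to 2855 in controls. The share divides by the summed FPKM of all genes, which averaged 396090, 447285 and 436654 in the same order. It is a score over rows chosen by level and was not tested. By mean FPKM, 94 of the 200 (47%) were highest with lactulose, 42 (21%) with high protein and 64 (32%) in controls, against 53.1%, 22.2% and 24.7% of the 16075 genes tested. By the TMM-scaled fit 67, 45 and 88 of the members were highest in the same order, against 37.9%, 27.3% and 34.8% of all genes, so the leading diet depends on the scaling.

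The first comparison between diets asks what 21% crude protein did to these transcripts relative to 18%. No member passed edgeR's quasi-likelihood test at an adjusted p under 0.05, and neither did any of the 16075 genes tested (0%). All 200 members passed the filter on low counts. At an unadjusted p under 0.05, 2 members were higher (1.0%) and 11 lower (5.5%) with high protein, against 1.31% and 1.86% of all genes tested. DESeq2 called 1 member, LOC125183064, among 8 of the 19792 genes to which it gave a p (0.0404%). The median log2 fold change of the members was −0.10, against −0.02 over all genes. Of the 200, 134 were negative and 66 positive, where 46.2% of all genes tested were positive. Without control 3 that median was 0.046, so its direction rested on 1 library.

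LOC125183064 was the row with the smallest p in this comparison and separated the diets completely. It has 289 bases on scaffold NW_025927697.1 (4713963 to 4714251, plus strand) and is RPS29, another small-subunit ribosomal protein, in the RefSeq table. In the deposited table the name RPS29 belongs to an mRNA row that begins after a gap of 2358 bases on the same scaffold, at 4716610, and ends at 4717216. LOC125183064 was counted at 195, 182, 277 and 78 in lactulose 2, 3, 5 and 6. It was counted at 343, 140, 387 and 74 in high protein 1, 3, 4 and 5 and at 0 in control 3, 4, 6 and 7.

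On the FPKM scale these counts were 20.9, 17.0, 28.2 and 7.90 with lactulose and 31.6, 13.6, 37.6 and 7.41 with high protein. Each library on 21% protein thus had counts and each control had none. LOC125183064 therefore entered the set through the libraries on 21% protein. Counts of members that include it cannot be read as an excess. The mRNA row RPS29 was high in all 12 libraries, at 547 to 925 FPKM with lactulose, 792 to 1386 with high protein and 547 to 1614 in controls. Counts of LOC125183064 were 0.454 to 2.71% of those of RPS29 with lactulose and 0.393 to 2.07% with high protein. In controls, with 10211 to 36476 counts of RPS29, a floor of 3 counts per library corresponds to 0.00822 to 0.0294%. Over the whole table a count of 4 occurred 5063 times, against 1799 times for 3 and 1526 times for 5. One read pair may therefore often stand for about 4 counts, though lower counts occur, such as 1 for LOC125182868 in lactulose 6. This floor may thus lie below a single read pair, and no bound on the share or the fold is given.

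The adjusted p of LOC125183064 was 0.0522 for high protein against control and 0.0735 for lactulose against control (edgeR). It was past the threshold in 5 of the alternatives in each comparison, which were DESeq2, limma on log2(FPKM + 1) and on log2(FPKM + 0.1), no filter, and the fit without high protein 5. Outside DESeq2 it was the one gene called in each of these, 1 of 16075 with either limma fit (0.00622%), 1 of 19836 with no filter (0.00504%) and 1 of 16319 without high protein 5 (0.00613%). Over all alternatives it ranged from 1.6e-14 to 0.977 for high protein and from 2.79e-13 to 0.677 for lactulose. Both comparisons use the same 4 control libraries. How reads that match both RPS29 copies were assigned is not stated in the labels or headers, and its part in this pattern was not tested.

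**Figure D3:**
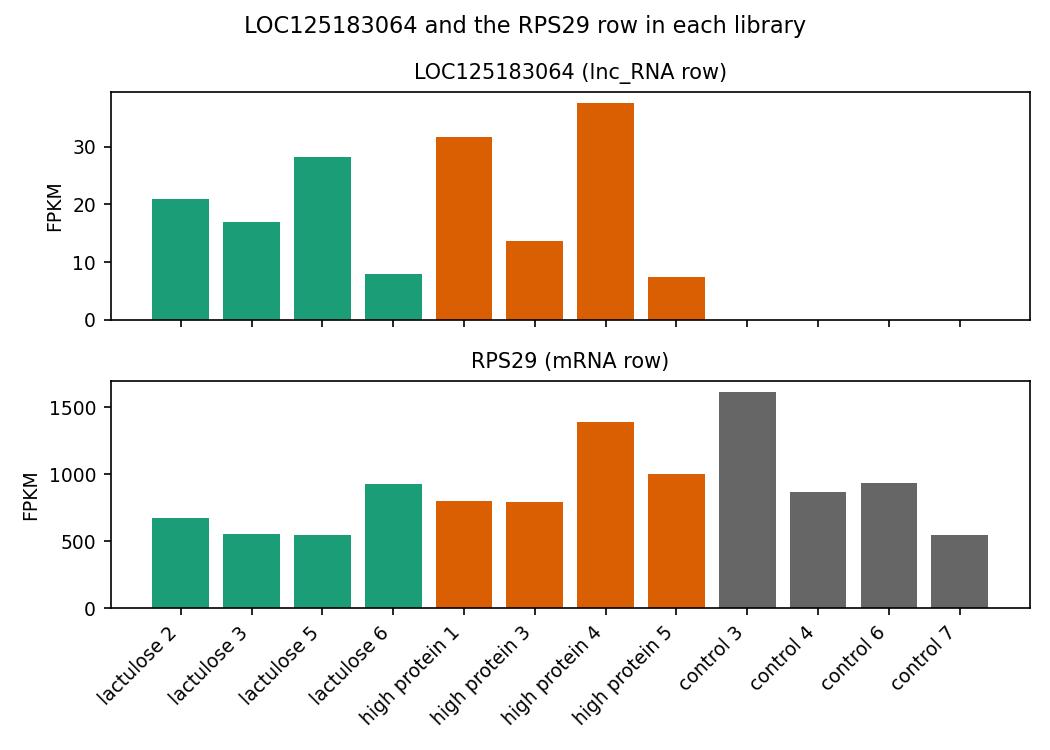
FPKM of LOC125183064 (upper panel) and of the mRNA row RPS29 (lower panel) in each of the 12 libraries, 1 bar per library. LOC125183064 is listed at 0 in the 4 controls and at 7.41 to 37.6 FPKM in the 8 libraries on 21% protein, while RPS29 is above 500 FPKM in all 12.

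The 3 members of smallest p among negative fold changes were LOC125180208, LOC125182084 and LOC106048338. LOC125180208 (scaffold NW_025927667.1, 9374949 to 9389234) runs opposite to PTK2, the focal adhesion kinase. It stood at 4.65, 3.75, 4.63 and 3.60 FPKM in high protein 1, 3, 4 and 5, against 4.30, 6.36, 6.41 and 7.69 FPKM in control 3, 4, 6 and 7. The groups overlapped through control 3. The log2 fold change was −0.56 ± 0.17 (SE; edgeR, unadjusted p = 0.00522, adjusted p = 0.9997). PTK2 itself stood at 17.2 to 19.3 FPKM in the high protein libraries, against 13.9 to 29.5 FPKM in controls.

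LOC106048338 (scaffold NW_025927900.1, 171843 to 183743) is itself described as calcium-binding and coiled-coil domain-containing protein 2. It runs opposite to CALCOCO2, the gene of that name, an autophagy receptor for bacteria and mitochondria in mammals. It stood at 1.93, 1.95, 2.07 and 1.93 FPKM in high protein 1, 3, 4 and 5, against 2.58, 3.03, 3.07 and 2.51 FPKM in control 3, 4, 6 and 7. No high protein library reached a control, and the log2 fold change was −0.52 ± 0.17 (unadjusted p = 0.0104, adjusted p = 0.9997 by edgeR). CALCOCO2 stood at 36.03 to 40.9 FPKM in the high protein libraries, against 38.6 to 50.4 FPKM in controls. LOC125182084, of unknown function, averaged 2.87 ± 0.65 FPKM in high protein libraries and 5.02 ± 1.35 FPKM in controls, whose ranges overlapped, with a log2 fold change of −0.81 ± 0.26 (unadjusted p = 0.00917 by edgeR).

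Of the rows with positive fold changes, LOC106045369 lies 2513 bases from GAS1, a growth arrest gene. It averaged 4.88 ± 1.78 FPKM in high protein libraries and 3.27 ± 0.92 FPKM in controls, and the groups overlapped (log2 fold change 0.57 ± 0.25, unadjusted p = 0.0370 by edgeR). LOC125184312, opposite to SH3BGRL, stood at 2.54 to 2.96 FPKM in high protein libraries and 1.40 to 2.43 FPKM in controls. These groups did not overlap, and the log2 fold change was 0.48 ± 0.22 (unadjusted p = 0.0532 by edgeR). Over all members, 2 were higher without overlap in FPKM and 2 lower, or 1% each way, against 0.485% and 0.958% of all genes tested.

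The second comparison asks what lactulose changed on the 21% protein diet. No member and no other gene passed (0%; edgeR), and limma called none. DESeq2 called 19 of 19792 genes (0.096%), with no member among them. At an unadjusted p under 0.05, 7 members were higher (3.5%) and 4 lower (2.0%) with lactulose, against 2.31% and 3.33% of all genes. The median log2 fold change was −0.003, against 0.02 over all genes, and 99 of the 200 were positive, against 52.8% of all genes. On the FPKM scale 12 members were higher without overlap (6%) and 4 lower (2%), against 4.71% and 1.79% of all genes. On that scale the median of all genes stands 0.10 (log2(FPKM + 0.1)) above 0 in this comparison, and 0.10 above 0 where lactulose is set against control, so counts of rows without overlap include this shift. This comparison shares its high protein libraries with the first.

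LOC106048338, opposite to CALCOCO2, stood at 4.13, 2.87, 3.31 and 2.81 FPKM in lactulose 2, 3, 5 and 6, against the 1.93 to 2.07 FPKM of the high protein libraries given above. Every lactulose library was higher (log2 fold change 0.63 ± 0.17, SE; unadjusted p = 0.00297, adjusted p = 0.845 by edgeR). CALCOCO2 stood at 32.3 to 45.8 FPKM with lactulose. LOC125180208, opposite to PTK2, stood at 6.30, 5.96, 7.37 and 5.68 FPKM with lactulose, and each value lay above those of high protein. Its log2 fold change was 0.51 ± 0.17 (unadjusted p = 0.00876, adjusted p = 0.845 by edgeR).

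LOC125179874 (scaffold NW_025927824.1, 1349090 to 1357274) lies opposite to LOC106035109, a less abundant lnc_RNA row. It stood at 6.48, 5.54, 5.19 and 7.08 FPKM in lactulose 2, 3, 5 and 6, against 2.93, 3.00, 4.40 and 3.14 FPKM in high protein 1, 3, 4 and 5. The groups did not overlap (log2 fold change 0.74 ± 0.23, unadjusted p = 0.00615 by edgeR). In controls it stood at 4.40 to 5.83 FPKM. For LOC106048338, LOC125180208 and LOC125179874 lactulose and control overlapped, with log2 fold changes of 0.11 ± 0.17, −0.05 ± 0.16 and 0.15 ± 0.22 (unadjusted p = 0.514, 0.787 and 0.503 by edgeR).

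LOC125184873, at rank 36, had the smallest p of the negative fold changes. It runs over 30346 bases of scaffold NW_025927784.1 (2278744 to 2309089), opposite to GALNT8, of a family of enzymes that start mucin-type glycosylation. It stood at 7.58, 9.37, 9.51 and 6.30 FPKM in lactulose 2, 3, 5 and 6, against 12.8, 11.1, 13.8 and 15.97 FPKM in high protein 1, 3, 4 and 5. The lactulose libraries all lay lower (log2 fold change −0.80 ± 0.20, unadjusted p = 0.00191, adjusted p = 0.845 by edgeR). GALNT8 stood at 1.31, 2.52, 0.698 and 16.7 FPKM with lactulose and 0.560 to 0.838 FPKM with high protein, with overlap through lactulose 5. Lactulose 6 held the lowest LOC125184873 and the highest GALNT8, while lactulose 5 held the highest LOC125184873 and the lowest GALNT8 of its diet. The other diets did not share this opposite order. High protein 5 was the highest of its diet for both rows, with GALNT8 at 0.838 FPKM. Control 7 was likewise the highest control for both, at 14.9 FPKM for LOC125184873 and 0.954 FPKM for GALNT8.

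LOC106030963, which lies 75 bases from SINHCAF, a subunit of a histone deacetylase complex, stood at 1.78, 1.88, 1.75 and 1.78 FPKM with lactulose, against 1.97, 2.39, 2.66 and 2.30 FPKM with high protein. Each lactulose value lay below each high protein value (log2 fold change −0.46 ± 0.15, unadjusted p = 0.00866 by edgeR). LOC106036319, protein coding in RefSeq, averaged 1.64 ± 0.32 FPKM with lactulose and 2.66 ± 0.74 FPKM with high protein, and their ranges overlapped (log2 fold change −0.77 ± 0.29, unadjusted p = 0.0197 by edgeR).

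**Figure D4:**
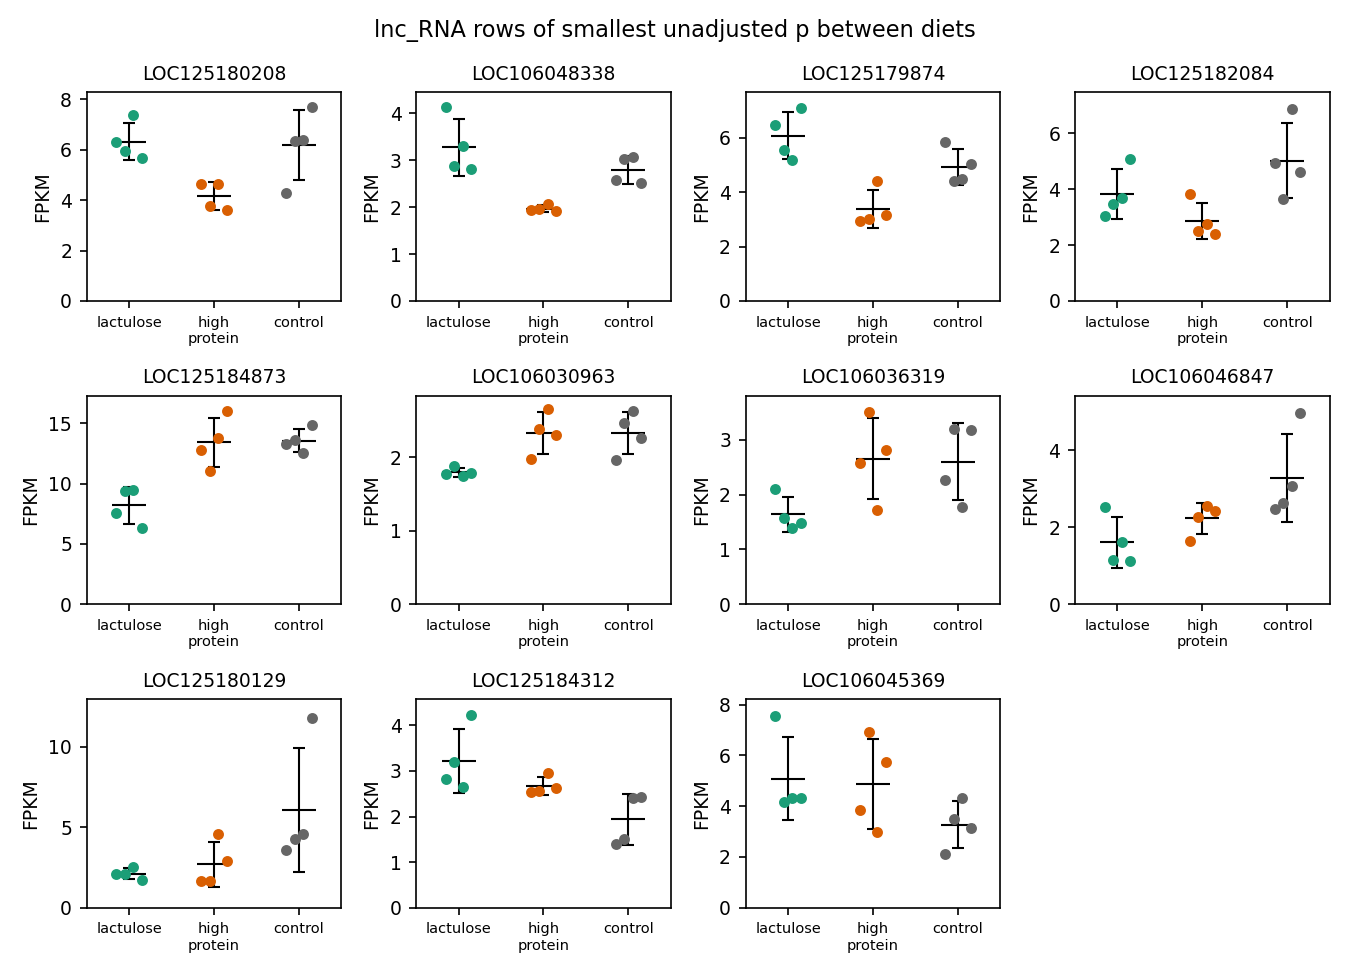
FPKM of the 11 rows besides LOC125183064 that had the smallest unadjusted p in either direction of a diet comparison, with 1 point per library and the mean and SD of 4 libraries per diet. LOC106048338 lies between 1.93 and 2.07 FPKM in high protein, below every lactulose and control library, and LOC125184873 lies below 10 FPKM with lactulose and above 11 FPKM otherwise.

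The third comparison sets lactulose on 21% protein against the 18% basal diet, so protein and lactulose cannot be told apart in it. It shares its controls with the first comparison and its lactulose libraries with the second. No gene passed edgeR (0%), and DESeq2 called 22 of 19792 genes (0.111%), among them 1 member, LOC125183064. At an unadjusted p under 0.05, 4 members were higher (2.0%) and 11 lower (5.5%), against 2.26% and 3.94% of all genes. Without overlap in FPKM, 6 members were higher (3%) and 5 lower (2.5%), against 2.06% and 1.15%. The higher rows include LOC125183064, which entered the set through the libraries on 21% protein. The median log2 fold change was −0.06, against 0.00 over all genes.

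LOC125184873 again had the smallest p among negative fold changes, with the lactulose values above against 13.3, 13.6, 12.5 and 14.9 FPKM in control 3, 4, 6 and 7. Again no library of one diet reached the other (log2 fold change −0.83 ± 0.20, unadjusted p = 0.00139, adjusted p = 0.771 by edgeR). High protein and control did not separate for it, with a log2 fold change of −0.04 ± 0.20. GALNT8 stood at 0.522 to 0.954 FPKM in controls.

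LOC106046847 (scaffold NW_025927733.1, 1625602 to 1629451) runs opposite to TUBD1, delta tubulin, and is itself described as a tubulin delta chain. It stood at 2.53, 1.16, 1.62 and 1.13 FPKM in lactulose 2, 3, 5 and 6, against 2.47, 2.63, 3.08 and 4.96 FPKM in control 3, 4, 6 and 7. Only lactulose 2 reached the control range (log2 fold change −1.14 ± 0.29, unadjusted p = 0.00187, adjusted p = 0.771 by edgeR). TUBD1 itself had a log2 fold change of −0.21 ± 0.29.

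LOC125180129 runs opposite to PTCHD3 and is itself described as patched domain-containing protein 3. It stood at 2.07, 2.13, 2.56 and 1.71 FPKM in lactulose 2, 3, 5 and 6, against 3.58, 4.27, 4.56 and 11.8 FPKM in control 3, 4, 6 and 7. All controls were above all lactulose libraries (log2 fold change −1.56 ± 0.48, unadjusted p = 0.00675 by edgeR). PTCHD3 stood at 15.9 to 28.2 FPKM with lactulose and 44.8 to 162 FPKM in controls, and its highest library was also control 7. Reads of this pair may not be divided by strand, which was not tested. LOC125184312, opposite to SH3BGRL, stood at 2.83, 3.19, 2.66 and 4.22 FPKM with lactulose, each above the 1.40 to 2.43 FPKM of the controls (log2 fold change 0.65 ± 0.22, unadjusted p = 0.0124 by edgeR). SH3BGRL stood at 275 to 293 FPKM with lactulose and 173 to 245 FPKM in controls. LOC106045369 had a log2 fold change of 0.55 ± 0.25 (unadjusted p = 0.0450 by edgeR).

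By RefSeq type, the median log2 fold change for lactulose against control was 0.01 for the 36 coding rows, −0.21 for the 74 lncRNA rows and −0.001 for the 89 unmatched rows. These medians were −0.14, −0.11 and −0.09 in high protein against control, and −0.01, −0.07 and 0.08 in lactulose against high protein. Marker levels of other cell types are given beside these values. Summed FPKM of 5 enteroendocrine markers was 227 to 345 with lactulose, 142 to 263 with high protein and 84.7 to 209 in controls, so that lactulose and control did not overlap. That of 7 of 8 smooth muscle markers was 2386 to 6765, 2832 to 5124 and 2218 to 4360 in the same order. For 5 of 6 macrophage markers the sum was 162 to 285 with lactulose, 276 to 353 with high protein and 191 to 247 in controls, so that high protein and control did not overlap. For 3 of 6 T and NK cell markers it was 14.8 to 21.9, 21.7 to 28.6 and 17.5 to 28.2 in that order. The groups without overlap in these sums did overlap by mean log2(CPM + 1) of the same markers. Enteroendocrine markers stood at 4.43 in lactulose 6, below 4.51 in control 7. Macrophage markers stood at 6.44 in high protein 4, below 6.48 in control 7. The part of these marker levels in the members' values was not tested.

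The libraries also divide by LOC125179667, an mRNA row described as like heterogeneous nuclear ribonucleoprotein K and placed on chromosome W by RefSeq (scaffold NW_025928333.1, 4297 to 23424). Its count was above 2000 in lactulose 2 and 6, high protein 1 and 4 and control 6 and 7, at 3357 to 4294. It was under 500 in lactulose 3 and 5, high protein 3 and 5 and control 3 and 4, at 12 to 409. Each diet thus had 2 libraries on either side. The sides are defined by a measured value, so ratios between them are descriptions with no test.

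Of the members, 5 were higher without overlap in the libraries above 2000 (2.5%) and 3 were lower (1.5%), against 0.66% and 0.59% of all genes with a count. The 5 higher rows had no match in RefSeq, so their chromosome is unknown here. Among rows without a match, 5 of 89 members were higher in this way, beside 68 of 2151 genes with a count. Under 500, the 5 higher members averaged 0.267 to 2.01 FPKM, each below the mean of 2.09 FPKM of the last member. They thus entered the set through the libraries above 2000. Neither 2.5% against 0.66% nor 5 of 89 beside 68 of 2151 can therefore be read as an excess. The 1.5% against 0.59% cannot either, since it rests on 3 rows and the share over all genes was not matched by level. LOC125181886 (scaffold NW_025929170.1, 7 to 910, alone on its scaffold) had a lowest, median and highest FPKM of 12.4, 14.5 and 16.9 above 2000, against 0, 0.227 and 2.501 under 500. LOC125181677, described as part of HAUS augmin-like complex subunit 1, had 4.37, 6.16 and 7.56 FPKM above 2000, against 0, 0.138 and 1.02 under 500. Both were close to absent in most libraries under 500.

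LOC125181177 averaged 9.13 ± 1.53 FPKM above 2000 and 1.83 ± 0.71 under 500 (SD, n = 6 per side). LOC125181423 averaged 7.02 ± 0.89 and 2.01 ± 0.91 FPKM, and LOC125181508 3.50 ± 0.33 and 0.873 ± 0.23 FPKM, in the same order. These 3 kept a level in every library under 500. Lactulose 3 was the highest of the 6 libraries under 500 for all 5 rows and for LOC125179667 itself. There it had 9.61% of the mean LOC125179667 level above 2000, against 1.15% in lactulose 5, and for LOC125181886 17.1% against 1.88%. LOC125181177 sits on a scaffold where 9 of the 10 other genes match chromosomes other than Z and W.

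All 3 lower rows are on chromosome Z in RefSeq. TOMM5 (LOC106049678) averaged 40.3 ± 5.18 FPKM above 2000 and 78.5 ± 30.8 under 500, a ratio of 0.513. LOC106043039, which lies 45 bases from TOPORS, averaged 7.21 ± 1.82 and 12.4 ± 2.21 FPKM in the same order, a ratio of 0.583. ATG12 (LOC106047874) averaged 6.51 ± 0.65 and 10.2 ± 1.35 FPKM, a ratio of 0.640. All 7 members placed on Z had a ratio below 1, from 0.430 for LOC125180617 to 0.868 for LOC106036319, with a median of 0.583. The 473 mRNA rows on Z above the mean of rank 200 had a median ratio of 0.773, and the members placed on other chromosomes 1.01.

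The 3 members that RefSeq places on W overlapped between the sides. LOC125181861 averaged 709 ± 319 FPKM above 2000 and 549 ± 198.3 under 500. LOC106029519 averaged 76.8 ± 16.5 and 113 ± 56.9 FPKM, and LOC125181584 4.45 ± 1.15 and 4.15 ± 1.15 FPKM, in the same order. They thus did not separate the sides as LOC125179667 does, whose W placement they share. Over all genes with a count, 18 of 88 rows placed on W were higher above 2000 without overlap and 108 of 847 rows on Z were lower. With the side added to the diet model, edgeR again called no member in any diet comparison.

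**Figure D5:**
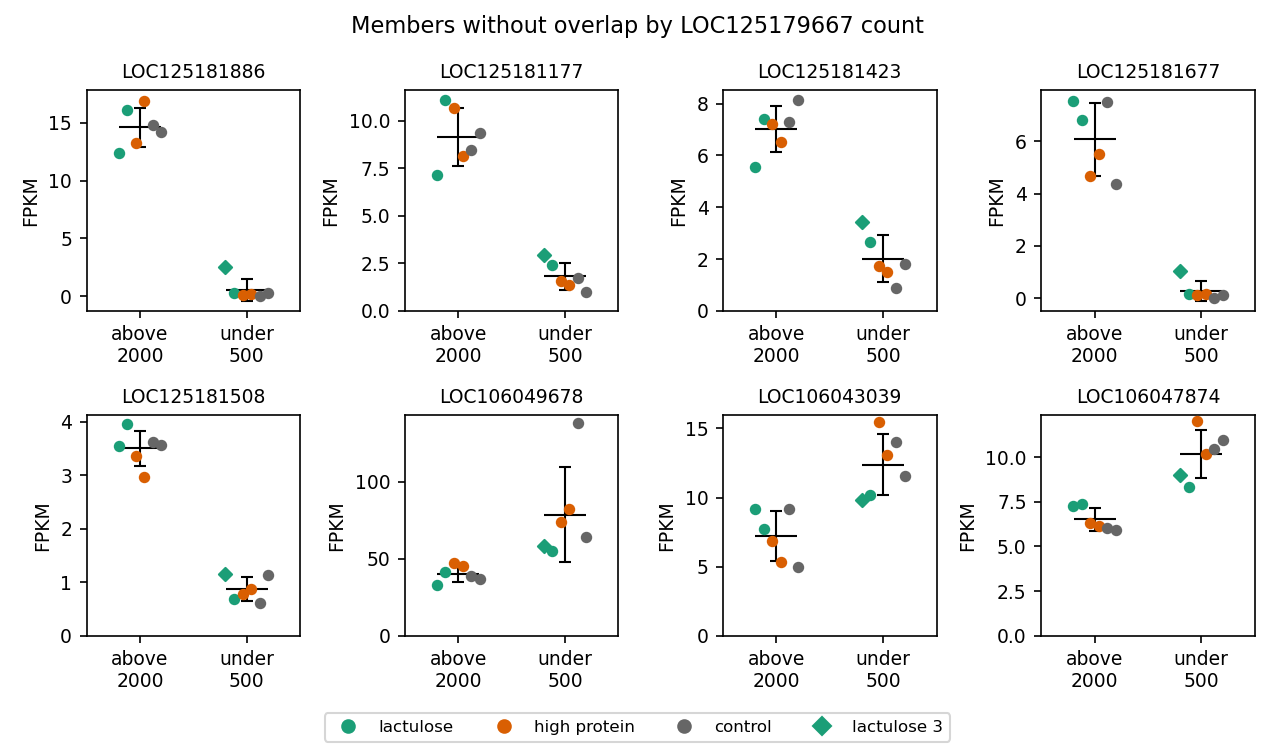
FPKM of the 8 rows whose libraries do not overlap between LOC125179667 counts above 2000 and under 500, with 1 point per library coloured by diet, and the mean and SD of 6 libraries per side. Lactulose 3 (diamond) is the highest library under 500 in the 5 rows that are higher above 2000.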

How the data were processed

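The authors deposited 1 table that gives each gene a raw count and FPKM in every library, per the file headers. Tools named without roles in the submitters' processing notes are HISAT2 2.2.1, StringTie 2.1.6, cutadapt 1.9, edgeR and DESeq2. The genome build, the annotation and strand use in counting were not given in the sources used here. Per the labels' protocols, poly(A) RNA was sequenced in pairs from strand-marked libraries. The table held 0 columns of other samples. The members and the gene lists were chosen with earlier results of these data known.

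Rows typed lnc_RNA were ranked by mean FPKM and the first 200 kept. Counts of all genes were fitted with edgeR 4.0.16 (quasi-likelihood test, TMM scaling, filterByExpr with minimum count 10) in R 4.3.3, on 12 libraries in a model of diet alone, which leaves 9 residual degrees of freedom. Tests were two-sided, with Benjamini-Hochberg adjustment over 16075 genes and a threshold of 0.05. SE is the size of the log2 fold change over the square root of its F value. FPKM served for levels, spread and overlap between groups. DESeq2 1.42.0 and limma 3.58.1 were among the alternatives, with the others in the closing section.

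On simulated counts for these 16075 genes, with 100 changed 2-fold and 100 changed 4-fold, the code recovered 40 and 79 for high protein against control, 36 and 78 for lactulose against high protein, and 34 and 78 for lactulose against control. It called 10, 4 and 2 of 15875 unchanged genes.

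Named members were the 10 of highest mean FPKM, the 3 of smallest p per diet comparison and direction, the 5 steadiest and 5 most variable, up to 5 per direction of the LOC125179667 sides, LOC125183064, and the 3 rows on either side of rank 200. Genes overlapping or near them, members with a RefSeq symbol, and the members RefSeq places on Z and W were named besides, after their values were seen. RefSeq names and types came from a Taihu goose assembly, matched by gene identifier, and no coordinates of it are printed. Correlations of members with marker scores were planned and not made, because 3 libraries stood far below the others in the enterocyte list. The list of 4 erythroid markers had 0 genes in the table. No sequence is printed, since no sequence table or genome was used here.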

Additional observations from a re-analysis of the deposited data

Results flagged for a closer look

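A library stood apart from the other 3 of its diet, by a gap to the next library above Dixon's critical share of the range, for 9 of 117 groups of named members (7.69%). Chance gives about 1 in 20, and over all members 32 of 600 groups met the same criterion (5.33%). The named members include the 5 most variable within diets, so 7.69% cannot be read against that rate. LOC125180650 and LOC125180447, flagged below, are among those 5. High protein 4 was the highest of its diet for LOC125179690 (291 FPKM, others 140 to 161), for LOC106048338 (2.07 FPKM, others 1.93 to 1.95) and for LOC125179874 (4.40 FPKM, others 2.93 to 3.14). It was the lowest for LOC125180119, at 35.5 FPKM against 39.6 to 39.7 in the others. Lactulose 2 was the highest for LOC125181724 (141 FPKM, others 85.7 to 92.7) and for LOC106045369 (7.55 FPKM, others 4.15 to 4.33). High protein 5 was the highest for LOC125180650, at 3.52 FPKM against 0.345 to 0.795. Control 7 was the highest for LOC125180129 (11.8 FPKM, others 3.58 to 4.56) and control 6 for LOC125180447 (6.63 FPKM, others 0.588 to 1.10).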

How the results depend on the processing

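In high protein against control and in lactulose against control, edgeR called 0 members, and 1 member, LOC125183064, was called with DESeq2, with limma on log2(FPKM + 1), with limma on log2(FPKM + 0.1), without a filter and without high protein 5 (0 to 1 over fits that left out 1 library). Lactulose against high protein gave 0 in all 26 alternatives. LOC125183064 had adjusted p of 1.6e-14, 0.00934, 1.73e-05, 0.0262 and 0.0316 for high protein and 2.79e-13, 0.0136, 2.21e-05, 0.0383 and 0.0486 for lactulose in those fits. For lactulose against high protein its log2 fold change turned to 1.14 with the replicate block and ran from −0.73 to 0.020 over fits without 1 library, with the positive value without high protein 4. Leaving out 1 library, the median log2 fold change of the members ran from −0.19 to 0.046 (without control 3) for high protein against control, from −0.13 to 0.01 for lactulose against control and from −0.06 to 0.04 for lactulose against high protein. The members' share of all counts was 0.683%, below their share of FPKM. Members without overlap by LOC125179667 numbered 8 to 10, and the median spread was 27.3 to 32.3%. The cause of these changes was not tested. With lactulose 3 and 5 averaged into 1 sample, edgeR called 0 genes in each diet comparison. Same-numbered libraries of different diets did not pair, with correlations of their deviations from −0.133 to 0.196, and the block left 3 residual degrees of freedom and 0 calls.

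Depth limits members under about 4 counts per library, the count of 1 read pair. Of 100 simulated 2-fold changes, 34 to 40 were recovered.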

Other observations

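LOC106035225, a row of 32919 bases on scaffold NW_025928040.1 (331760 to 364678) with no match in RefSeq, was nearly absent in most libraries with LOC125179667 above 2000. It stood at 0.0467 and 0.0564 FPKM in lactulose 2 and 6, at 0.0313 and 0.0862 FPKM in high protein 1 and 4 and at 0.0392 FPKM in control 7, but at 7.56 FPKM in control 6. In the libraries under 500 it stood at 8.09 and 9.23 FPKM in lactulose 3 and 5, at 2.73 and 3.74 FPKM in high protein 3 and 5 and at 4.33 and 4.52 FPKM in control 3 and 4. Control 6 is thus the only library above 2000 that overlaps those under 500. The row was picked out after its values were seen.

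Between opposite partners the fold changes had the same sign in 50 of 71 tested pairs for high protein against control, in 43 for lactulose against high protein and in 42 for lactulose against control. The pair of LOC125181142 and LOC106038247 is counted from both sides here too. Of the 77 members that overlap a gene, 59 had negative fold changes for high protein against control. No share over other pairs of genes was set beside these counts, so no conclusion is drawn from them. These comparisons share libraries, and the part of reads counted on the wrong gene of a pair was not tested.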
